A study of Homo sapiens with 12 samples.

Results

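SMARCB1 is a core subunit of SWI/SNF, a family of chromatin remodelling complexes that use ATP to slide or evict nucleosomes and so open DNA to transcription factors. Its loss defines rhabdoid tumours, and complexes that lack it are known to occupy fewer distal regulatory elements. BRD9 belongs to one form of these complexes, the non-canonical form, which does not contain SMARCB1. A region that is opened fully when SMARCB1 returns may be closed without it, or may already hold a low level of accessibility. The regions described here are those in which the SMARCB1-deficient cells gave a peak in some libraries and not in others.

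The cells were G401, an established rhabdoid tumour line whose genotype is given as SMARCB1(-/-) in every library, controls included. Doxycycline for 24 h induced GFP or SMARCB1, together with the vehicle DMSO or with dBRD9-A, a compound that degrades BRD9. This made 4 groups of 3 ATAC-seq libraries: GFP with DMSO, GFP with dBRD9-A, SMARCB1 with DMSO and SMARCB1 with dBRD9-A. GFP cells were a parallel control and not an earlier time point, so the comparison is with cells that lack SMARCB1 and not with the same cells before induction. The labels do not say whether the 3 libraries of a group came from separate cultures, and the p-values measure only the spread between these libraries.

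Peaks of all 12 lists, called by the authors in each library from nucleosome-free fragments, were merged wherever they overlapped by at least 1 bp, which gave 187088 regions. A region was kept when all 6 SMARCB1 libraries and 1 to 3 of the 6 GFP libraries had a peak in it. This left 3987 regions, 2.13% of all and 10.1% of the 39492 regions found in all 6 SMARCB1 libraries. A peak in 1 GFP library was found for 1702 of them (42.7%), in 2 for 1203 (30.2%) and in 3 for 1082 (27.1%). They are called weakly open regions below. For comparison, 13634 regions found in all 6 SMARCB1 libraries had no GFP peak, 3757 had a peak in 4 or 5 GFP libraries, and 18114 were constitutive, with a peak in all 12. These regions were chosen by the presence of peaks in SMARCB1 and GFP lists, so the strength of their peaks in either kind of list is a description and was not tested. Coordinates are 1-based in hg19, and no gene annotation or genome sequence of that build was used here.

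Depth limits what a missing peak can show. The background pileup of a library, meaning how many fragments would cover a base at random, was between 0.0383 and 0.0784 in GFP lists (mean 0.0517 ± 0.0171, SD, n = 6) and between 0.0487 and 0.111 in SMARCB1 lists (mean 0.0827 ± 0.0217, SD, n = 6). Read totals were not analysed here. The lists held between 33428 and 96572 peaks, and a region with no peak in a list is not thereby shown to be closed.

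The weakly open regions were spread unevenly over the GFP lists. GFP DMSO replicates 1, 2 and 3 had a peak in 1725, 938 and 1084 of the regions. GFP dBRD9-A replicates 1, 2 and 3 had one in 641, 752 and 2214. GFP dBRD9-A replicate 3, which alone held 55.5% of the regions, and GFP DMSO replicate 1, with 43.3%, stood above the other 4 libraries, which held 16.1% to 27.2%. These were also the GFP libraries of highest background pileup, at 0.0784 and 0.0678, against 0.0383 to 0.0446 in the other 4. In all, 3152 regions (79.1%) had a peak in 1 or both of these libraries, and 835 (20.9%) only in the others. Of the regions with a single GFP peak, 652 had it in GFP dBRD9-A replicate 3 and 384 in GFP DMSO replicate 1, and of those with 2 GFP peaks the most frequent combination was this pair, with 243 regions.

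**Figure D1:**
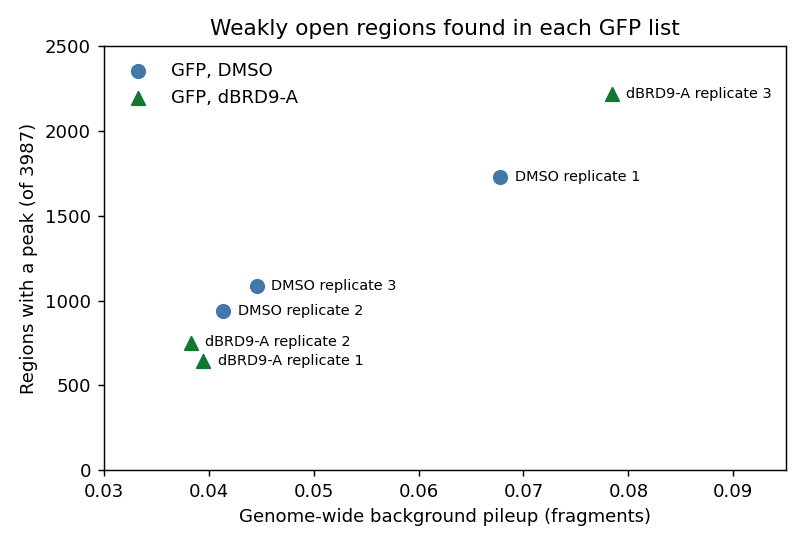
Number of weakly open regions with a peak in each of the 6 GFP libraries (vertical axis) against the background pileup of the library in fragments (horizontal axis); circles are DMSO and triangles dBRD9-A. The libraries with the highest background pileup, at 0.0678 and 0.0784, hold 1725 and 2214 regions, and the other 4 hold 641 to 1084.

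The same order appeared when pileups and backgrounds were scaled to that of the library with the lowest background and peaks were kept at a common −log10 p of 4.02. A peak in the 3987 regions then remained in 1456, 913 and 1033 cases in GFP DMSO replicates 1, 2 and 3, and in 637, 752 and 1571 in GFP dBRD9-A replicates 1, 2 and 3. The libraries that were highest before scaling were still the highest. The regions had been chosen with the unscaled lists, so this order was carried over in part from that choice. SMARCB1 lists kept a peak in 88.9% to 99.0% of the regions. Scaling left 2707 of the regions (67.9%) within the rule, moved 362 (9.08%) to the class with no GFP peak and took a peak in at least 1 SMARCB1 library from 918 (23%). The rule applied to the scaled lists gave 2834 regions. GFP DMSO replicates 1, 2 and 3 held 1193, 783 and 879 of these. GFP dBRD9-A replicates 1, 2 and 3 held 522, 599 and 1233. Whether depth accounts for the order of the libraries was not tested.

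The authors' fold enrichment is the pileup at the peak summit over the local background, with 1 added to each. It was low in the GFP lists that held these regions. Its median over the regions was 4.93, 4.54 and 4.65 in GFP DMSO replicates 1, 2 and 3, and 4.16, 4.11 and 5.32 in GFP dBRD9-A replicates 1, 2 and 3. In the SMARCB1 lists the median fold was 8.41, 8.69 and 8.78 with DMSO and 9.49, 7.06 and 9.55 with dBRD9-A in replicates 1, 2 and 3. The lowest median of a SMARCB1 list, in dBRD9-A replicate 2, lay above the highest of a GFP list. Background pileups were far below 1 fragment, so with 1 added the fold depends on depth as well as on enrichment. Fold values come from separate lists and are set side by side only as a description.

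Ranked within its own list, a typical weakly open region stood at percentile 66.3 in the SMARCB1 lists and 23.1 in the GFP lists that held it (medians over regions of the mean percentile). The percentile was lower in GFP for 3872 of the 3987 regions (97.1%), with a median gap of 41.6 points and quartiles of 25.1 and 59.3. It was also lower in GFP for 89.9% of regions with 4 or 5 GFP peaks and for 84.8% of constitutive regions. The median gaps of those classes were smaller, at 19.9 and 6.26 points. GFP lists held 33428 to 50089 peaks and SMARCB1 lists 71169 to 96572, so these percentiles are over lists of unlike length. The word weakly fits most of the regions but not each of them: 545 (13.7%) had a GFP peak above the median fold of its list, and 0 had one above percentile 90. A GFP peak with −log10 q of at least 5 was found for 1963 regions (49.2%), counting the best of the GFP lists that held each. Within single GFP lists, 24.5% to 48.9% of the peaks in these regions reached this value. Of all peaks in those lists, 69.4% to 73.9% did.

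In fragments, the GFP peaks were close to the smallest that were called. The summit pileup recovered from the fold and p-value had a median of 5 fragments in GFP DMSO replicate 1, 6 in GFP dBRD9-A replicate 3 and 4 in each of the other GFP lists. The smallest pileup of any peak was 2 fragments in every list. Between 21.4% and 48.3% of the GFP peaks in these regions had a summit of at most 3 fragments. In the SMARCB1 lists the median was 11, 11 and 12 fragments with DMSO and 13, 8 and 14 with dBRD9-A. Over all peaks of a list, the median summit was 8 to 10 fragments in GFP and 6 to 7 in SMARCB1 lists. Divided by the background pileup of the library, the median summit was 73.7 to 104 in GFP and 126 to 164 in SMARCB1 lists. The rule, which asks for a peak in every SMARCB1 list, favours higher values there on this scale too.

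**Figure D2:**
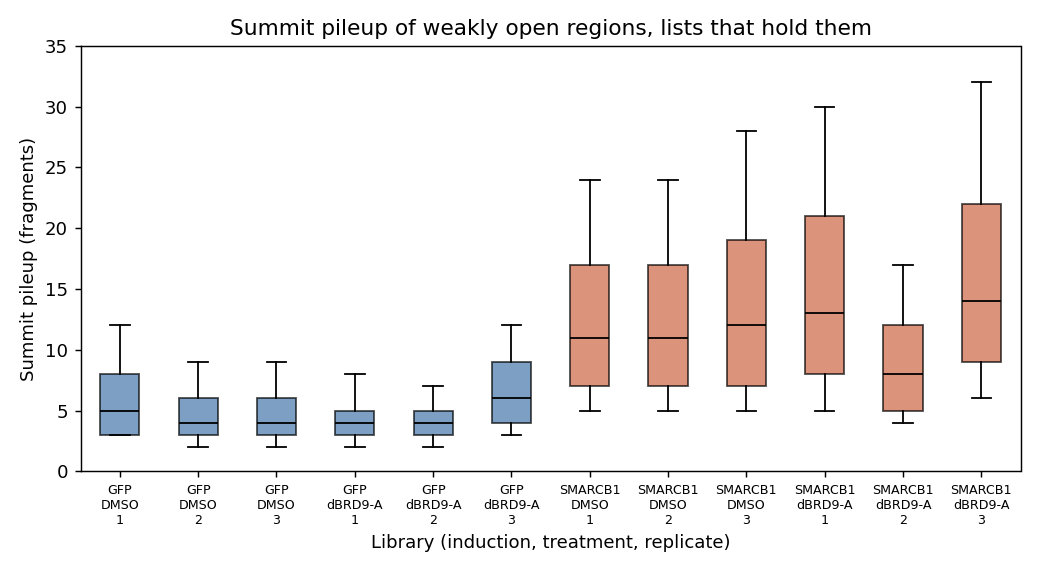
Summit pileup in fragments (vertical axis) of the weakly open regions in each of the 12 lists, over the regions that the list holds; boxes span the quartiles with the median as a line, and whiskers reach the 10th and 90th percentiles. GFP medians are 4 to 6 fragments and SMARCB1 medians 8 to 14.

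From 1 to 4 GFP libraries, the average percentile fell in SMARCB1 lists and rose in GFP lists. At 5 and 6 GFP libraries it rose in both. The median percentile within the SMARCB1 lists averaged 64.9 ± 4.70 for regions with no GFP peak, 70.2 ± 3.72 for 1 GFP library, 69.7 ± 3.29 for 2, 67.1 ± 2.75 for 3, 65.1 ± 3.25 for 4 and 66.5 ± 2.98 for 5 (SD, n = 6 lists each). Constitutive regions stood at 84.8 ± 1.35. In each of the 6 SMARCB1 lists the median of regions with 1 GFP peak was above that of regions with none and above that of regions with 4. In SMARCB1 DMSO replicate 1, for example, these medians were 69.1, 63.3 and 62.9, and in SMARCB1 dBRD9-A replicate 3 they were 74.2, 69.6 and 67.7. In the GFP lists that held them, the percentile rose from 14.0 ± 5.55 at 1 GFP library to 21.4 ± 5.53 at 2 and 27.6 ± 6.21 at 3 (SD, n = 6 lists each). Just outside the rule, at 4 GFP libraries, it was 34.2 ± 6.40. At 5 GFP libraries it was 43.8 ± 7.17, and at constitutive regions 75.4 ± 3.71. Stronger regions are called in more lists, so some rise in the GFP lists is built into this grouping. The change from 3 to 4 libraries was similar in size to that from 2 to 3 in both kinds of list.

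**Figure D3:**
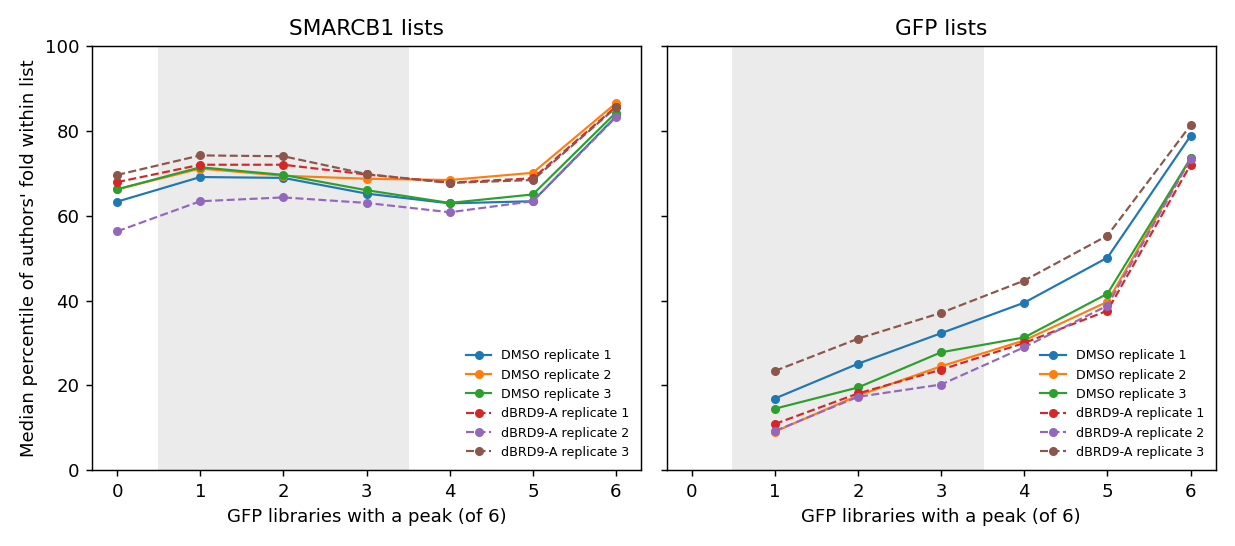
Median percentile of the authors' fold within each list (vertical axis) for regions found in all 6 SMARCB1 libraries, by the number of GFP libraries with a peak (horizontal axis); each line is 1 library, solid for DMSO and dashed for dBRD9-A, and the shaded band marks the weakly open regions. In SMARCB1 lists the regions with 1 GFP peak lie above those with 0 and with 4, and in GFP lists the percentile rises from 14.0 on average at 1 library to 34.2 at 4.

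Peaks had a similar position in both kinds of list, and those called in GFP lists were narrower. The summit of a GFP peak lay a median of 22 bp from the median SMARCB1 summit of the same region, with library medians from 20.5 to 26 bp. Of the 7354 GFP peaks, the strongest in each region and list, 72.3% had a summit within 50 bp and 96.6% within 200 bp. Single SMARCB1 summits lay within 50 bp of their own median in 87.3% of cases. That median includes the summit itself, which raises this share, so it is not a like baseline for the GFP summits. At 4 GFP libraries 79.7% of the GFP summits were within 50 bp, and at constitutive regions 86.7%. Merging on overlap limits how far apart summits can be. The GFP peak was narrower than the SMARCB1 peak in 3659 regions (91.8%), with a median width ratio of 0.575 (quartiles 0.414 and 0.787). Over all peaks of a list, the median width was 113 to 119 bp in GFP and 120 to 128 bp in SMARCB1 lists. The ratio was not computed for the other classes. Whether the narrower GFP peaks follow from their few fragments was not tested.

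The regions themselves had a median width of 273 bp, with quartiles of 215 and 362 bp and a range from 89 to 1280 bp. In 3704 of them (92.9%) every SMARCB1 list had a single peak, against 93.7% of regions with no GFP peak, 92.9% of those with 4 or 5 and 92.6% of constitutive regions. Regions with no GFP peak had a median width of 270 bp, those with 4 or 5 GFP peaks 237 bp and constitutive regions 282 bp. The classes differed little in the share with a single peak, and by width the weakly open regions lay between those with no GFP peak and constitutive regions.

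The position along the genome was not used by the rule. The share of weakly open regions among all regions in the 6 SMARCB1 lists varied little between autosomes, from 8.05% on chromosome 13 (69 of 857) to 12.8% on chromosome 21 (53 of 414), with a median of 9.96%. It was 11.4% on X and 15.8% on Y, where it rests on 6 of 38 regions. Regions with no GFP peak varied more over the autosomes, from 12.4% on chromosome 19 to 47.3% on chromosome 18, with a median of 34.9%. On chromosome 19, which is rich in genes, 187 regions were weakly open and 251 had no GFP peak. On chromosome 18, which is poor in genes, the numbers were 66 and 330.

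**Figure D4:**
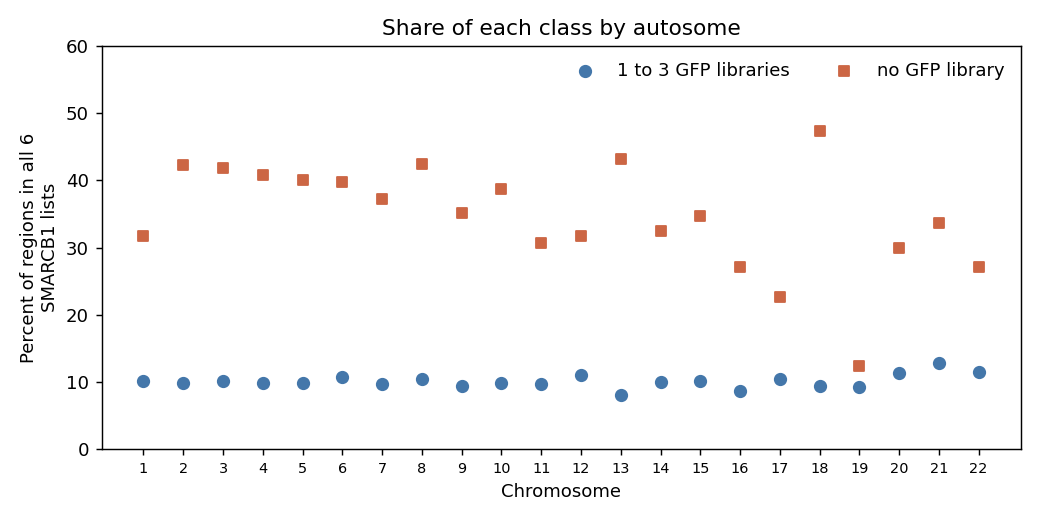
Percent of the regions found in all 6 SMARCB1 lists (vertical axis) that had a peak in 1 to 3 GFP libraries (circles) or in none (squares), for each autosome (horizontal axis). The circles stay between 8.05% and 12.8%, and the squares range from 12.4% on chromosome 19 to 47.3% on chromosome 18.

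Weakly open regions lay nearer to constitutive chromatin than regions with no GFP peak. The gap to the nearest constitutive region had a median of 22.5 kb (quartiles 8.07 and 58.0 kb), against 47.6 kb (quartiles 17.4 and 121 kb) for regions with no GFP peak and 21.0 kb for those with 4 or 5 GFP peaks. A constitutive region lay within 10 kb of 1191 weakly open regions (29.9%) and of 2064 regions with no GFP peak (15.1%). By the number of GFP libraries, the median gap was 25.1 kb at 1, 20.8 kb at 2, 19.4 kb at 3 and 20.2 kb at 4, so most of the difference was between 0 and 1. Constitutive regions themselves lay a median of 19.8 kb from each other. No test was run, since regions are not replicates.

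The gap was the smaller for weakly open regions on each of the 22 autosomes. It was 10.5 kb against 14.6 kb on chromosome 19, where both were lowest, and 49.4 kb against 75.3 kb on chromosome 13, where both were highest. Among regions of like strength, in 4 bins of equal size over both classes by the mean SMARCB1 percentile, from weakest to strongest, the medians were 32.4, 17.1, 19.4 and 24.5 kb for weakly open regions and 57.9, 44.8, 43.1 and 44.7 kb for regions with no GFP peak. With lists scaled to the lowest background pileup the 2 medians were 21.8 and 47.5 kb. When presence required peaks over 50% of a region they were 42.0 and 75.1 kb. To each other, weakly open regions lay a median of 81.0 kb apart, and 515 of them (12.9%) had another within 10 kb.

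**Figure D5:**
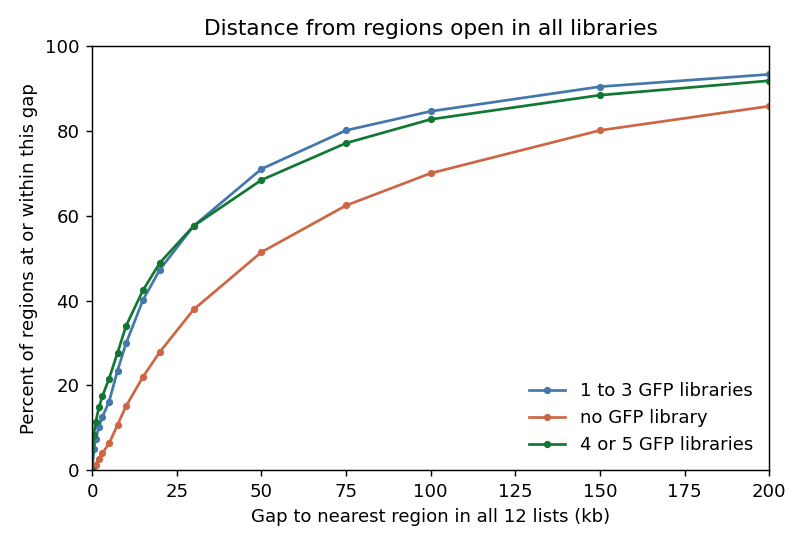
Percent of regions (vertical axis) whose gap to the nearest region found in all 12 lists is at or below the value on the horizontal axis, in kb, for regions of all 6 SMARCB1 lists with 1 to 3, with no and with 4 or 5 GFP peaks. Within 10 kb the curves stand at 29.9%, 15.1% and 34.0%.

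Single regions show the range within the class. The weakly open region of highest mean percentile in the SMARCB1 lists, at 99.74, was at chromosome 13, positions 113366004 to 113366450. Its fold was 27.4, 28.0 and 27.1 in SMARCB1 DMSO replicates 1, 2 and 3 and 32.7, 23.6 and 26.9 in SMARCB1 dBRD9-A replicates 1, 2 and 3. In GFP DMSO it was 3.51 in replicate 1 and 5.11 in replicate 2, and the other 4 GFP libraries had no peak. The summit held 34 to 65 fragments in SMARCB1 lists and 3 and 5 in the GFP lists, and the nearest constitutive region was 105 kb away. All 6 SMARCB1 values of this region lay above both GFP values, which its choice by SMARCB1 percentile favours.

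The next regions by strength had a single GFP peak of few fragments. At chromosome 16, positions 16115880 to 16116200, folds in SMARCB1 lists ran from 21.9 to 33.2, with summits of 32 to 68 fragments, and the one GFP peak, in DMSO replicate 1, had a fold of 3.72 and 3 fragments. At chromosome 18, positions 20981441 to 20981855, SMARCB1 folds ran from 24.4 to 29.9, and the GFP peak, in dBRD9-A replicate 1, had a fold of 3.79 and 3 fragments. These GFP peaks were near the smallest called in any list.

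The others of the 8 strongest had GFP peaks of somewhat more fragments. At chromosome 17, positions 19047772 to 19047927, 1.76 kb from a constitutive region, SMARCB1 folds were 20.1 to 33.0 and GFP dBRD9-A replicate 3 had a fold of 7.09 with 9 fragments. At chromosome 1, positions 32599059 to 32599357, SMARCB1 folds were 21.8 to 30.1, and GFP DMSO replicate 3 and GFP dBRD9-A replicate 3 had folds of 6.13 and 7.0. A region on chromosome 8 had SMARCB1 folds of 23.9 to 30.9 and a fold of 5.81 in GFP dBRD9-A replicate 3. In these 3 regions too, each SMARCB1 fold was above each GFP fold, which the choice by SMARCB1 percentile favours.

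The last of the 8 were at chromosome 1, positions 44047951 to 44048174, and at chromosome 19, positions 49906959 to 49907354. The first had SMARCB1 folds of 18.2 to 34.6 and a fold of 5.21 in GFP dBRD9-A replicate 3. The second had SMARCB1 folds of 23.4 to 28.0 and folds of 6.26, 5.62 and 4.41 in GFP DMSO replicates 1 and 3 and GFP dBRD9-A replicate 3. GFP dBRD9-A replicate 3, the GFP library of highest background pileup, held 5 of the 8 strongest regions, beside 55.5% of all weakly open regions.

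The 5 regions of highest percentile in the GFP lists were picked by that value, so high GFP folds follow from the choice. At chromosome 5, positions 124070877 to 124071128, the fold was 19.2 in GFP DMSO replicate 1, 7.85 in GFP DMSO replicate 2 and 13.7 in GFP dBRD9-A replicate 3, with 22, 8 and 16 fragments. In SMARCB1 lists it was 22.7, 24.8 and 19.2 with DMSO and 24.8, 13.9 and 13.3 with dBRD9-A, so the values of the 2 kinds of list overlapped. At chromosome 1, positions 10021320 to 10021470, the only GFP peak, in dBRD9-A replicate 3, had a fold of 11.5, above the SMARCB1 folds of 5.23 to 8.45. Its mean percentile was 70.0 in GFP and 56.1 in SMARCB1 lists, against the direction of most of the class.

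At chromosome 7, positions 55132868 to 55133034, a fold of 11.3 in GFP dBRD9-A replicate 3 lay above all SMARCB1 folds, which were 6.45 to 10.4. In fragments, this GFP summit held 15, within the range of 10 to 23 in the SMARCB1 lists. At chromosome 11, positions 61468887 to 61469045, GFP folds of 11.0, 8.57 and 15.8 stood beside SMARCB1 folds of 6.35 to 13.4. At chromosome 20, positions 52228119 to 52228339, GFP folds of 11.0, 12.5 and 7.99 stood beside SMARCB1 folds of 6.82 to 13.5. In the last 2 regions the values of both kinds of list overlapped.

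The treatment was not used by the rule, but the GFP peaks were. The first question about treatment was whether BRD9 degradation changed how many of the regions were seen in GFP cells. The rule kept a region with 1 to 3 GFP peaks and dropped it with none or more. The counts of the GFP libraries were therefore tied to each other by the choice. The tests of count and share below compare values used for that choice, so they cannot answer the first question. GFP libraries with DMSO had a peak in 1249 ± 419 of the regions and those with dBRD9-A in 1202 ± 878 (SD, n = 3 each). The difference of −46.7 regions was far smaller than the spread between replicates (two-sided exact permutation p 1, adjusted p 1 over 4 tests). Its sign changed when GFP DMSO replicate 1 (225 regions), GFP dBRD9-A replicate 1 (305) or GFP dBRD9-A replicate 2 (210) was left out. Without GFP dBRD9-A replicate 3 it was −782. With lists cut to equal length it was −110 regions, with every dBRD9-A list below every DMSO list (exact permutation p 0.1, the smallest possible), and with lists scaled to the lowest background it was −167 (exact permutation p 0.600). As a share of all regions in a list, weakly open regions made up 4.02%, 2.72% and 3.12% in GFP DMSO and 1.96%, 2.17% and 4.50% in GFP dBRD9-A replicates 1, 2 and 3. The means were 3.29% ± 0.669 and 2.88% ± 1.41 (SD, n = 3 each), a difference of −0.408 percentage points (exact permutation p 0.600, adjusted p 1). It was 0.125 points without GFP dBRD9-A replicate 1, and leaving out GFP dBRD9-A replicate 3 made it −1.64. With lists of equal length it was −0.338 points (exact permutation p 0.1). With 3 against 3 libraries the smallest p is 0.1, so no difference could pass 0.05.

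By region, GFP peaks were found with DMSO only for 1118 regions (28.0%), with dBRD9-A only for 1164 (29.2%) and with both for 1705 (42.8%). The 1164 regions with no GFP DMSO peak met a rule of 3 of 3 SMARCB1 against 0 of 3 GFP libraries in DMSO, which 11.3% of all regions met, and the 1118 met it in dBRD9-A, which 10.6% of all met; this contrast is part of how the regions were chosen. Among the 1082 with 3 GFP peaks, 43 had all 3 in dBRD9-A (3.97%, against 4.81% of all 5259 regions with 3 GFP peaks) and 68 had all 3 in DMSO (6.28%, against 4.30%). The DMSO count was the larger among weakly open regions, and the dBRD9-A count, at 253 against 226, among all such regions; this difference was not tested. Of the 1203 regions with 2 GFP peaks, 469 had them in the same treatment, with 26 to 114 in each of the 6 library pairs. Libraries that shared a replicate number across treatments held 54, 28 and 196 for numbers 1, 2 and 3, and the other 6 pairs 14 to 243. Both pairs of over 114 regions included GFP dBRD9-A replicate 3.

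The counts of 43 and 68 were 10 and 50 with lists of equal length, 26 and 66 with 50% cover and 29 and 83 with scaled lists. Shares over all regions with 3 GFP peaks are not given for these settings. The counts alone show no trait of weakly open regions. They also varied with the libraries, as leaving one out loosens the rule to 2 libraries of its group. The number with peaks in dBRD9-A only was 204, 94 and 77 without GFP DMSO replicates 1, 2 and 3, and 144, 134 and 69 without GFP dBRD9-A replicates 1, 2 and 3. The number with peaks in DMSO only was 102, 171 and 182 without GFP DMSO replicates 1, 2 and 3. It was 97, 120 and 348 without GFP dBRD9-A replicates 1, 2 and 3. The dBRD9-A number was the larger without GFP DMSO replicate 1, GFP dBRD9-A replicate 1 or GFP dBRD9-A replicate 2.

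Among these regions, those of highest percentile in the SMARCB1 lists differed in their GFP strength. At chromosome 14, positions 100046206 to 100046929, the 3 GFP dBRD9-A libraries had folds of 5.62, 3.27 and 4.67 and the SMARCB1 lists 13.6 to 21.3. At chromosome 5, positions 82700105 to 82700477, the GFP dBRD9-A folds were 4.70, 4.82 and 4.64, each from 4 fragments, and the SMARCB1 folds 8.99 to 23.1. At chromosome 16, positions 85660085 to 85660520, they were 5.57, 6.54 and 6.73, and the SMARCB1 folds 10.9 to 20.5. None of these 3 had a peak in a GFP DMSO library.

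In the other direction, the region at chromosome 14, positions 75919485 to 75920182, had folds of 7.82, 7.45 and 8.0 in GFP DMSO, from 9, 8 and 8 fragments, at a mean percentile of 52.4 in those lists, and 14.5 to 20.3 in SMARCB1 lists. At chromosome 7, positions 82488617 to 82489132, the GFP DMSO folds were 5.62, 3.69 and 2.87 from 5, 3 and 2 fragments, and the SMARCB1 folds 11.8 to 19.3. At chromosome 12, positions 6404368 to 6404608, they were 7.68, 5.67 and 3.75, and the SMARCB1 folds 11.5 to 19.8. These 3 had no peak in a GFP dBRD9-A library, and all 6 SMARCB1 libraries held them in both treatments.

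The second question was whether BRD9 degradation shifted the weakly open regions once SMARCB1 was present. The rule dropped regions that lacked a peak in even 1 SMARCB1 list. Peaks gained or lost with dBRD9-A in these cells therefore cannot be seen here. Ranks over regions chosen in the same way also cannot show a shift common to all of them. The fold was ranked in each SMARCB1 list over the same 39492 regions, so that ranks were over equal sets. The median rank of the weakly open regions was at percentile 41.5, 37.8 and 40.5 with DMSO and 39.9, 39.6 and 40.9 with dBRD9-A in replicates 1, 2 and 3. The means were 39.9 ± 1.93 and 40.1 ± 0.691 (SD, n = 3 each), a difference of 0.196 points (two-sided exact permutation p 0.900, adjusted p 1) that became −0.341 without SMARCB1 DMSO replicate 2 and reached 1.13 at most with another library left out. The 3 dBRD9-A values lay within the range of the DMSO values.

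The median width of their peaks was 188, 192 and 194 bp with DMSO and 205, 162 and 203 bp with dBRD9-A. The difference of −1.33 bp was within the spread (exact permutation p 1, adjusted p 1) and was 13.5 bp without SMARCB1 dBRD9-A replicate 2, the SMARCB1 library of lowest background pileup, which alone lay below the DMSO libraries. An effect of dBRD9-A on strength or width was not detectable with these libraries, which does not show that there was none.

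Region by region, 158 of the 3987 (3.96%) ranked higher in all 3 SMARCB1 dBRD9-A lists than in all 3 SMARCB1 DMSO lists, against 3.88% of all 39492 regions. For 140 (3.51%) every dBRD9-A rank was below every DMSO rank, against 4.12% of all. Leaving out a SMARCB1 library loosens this rule to 2 lists against 3: the first count was then 368, 371 and 470 without SMARCB1 DMSO replicates 1, 2 and 3 and 348, 415 and 377 without SMARCB1 dBRD9-A replicates 1, 2 and 3, and the second 276, 351 and 380 and 313, 408 and 342. Compared within each replicate number, 563 regions (14.1%) ranked higher with dBRD9-A in all 3 numbers, against 12.8% of all, and 462 (11.6%) ranked lower, against 13.0%. The shares were near those of all regions in both forms of the comparison.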

How the data were processed

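ATAC-seq libraries of G401 cells were prepared with an Active Motif kit, per the labels' protocols. BWA 0.7.12-r1039, SAMtools 1.2, bedtools 2.24.0, MACS2 2.1.1.20160309 and build hg19 are named in the submitters' processing notes, with no settings. One filtered peak list per library was deposited; the nature of the filter is not given in the sources used here. Each deposited list gives, as the authors' peak caller wrote them, a score (not used), a fold enrichment (a ratio) and the −log10 of p and q, with a lowest −log10 q of 1.30.

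With a pseudocount of 1, fold and −log10 p returned a whole summit pileup for 100% of peaks within 0.001; the most frequent background of a list served as its depth. The strongest peak of a list stood for a region. Tests were two-sided exact permutations of 3 against 3 libraries, with Benjamini-Hochberg adjustment over 4 tests, in Python 3.11.15 with numpy 2.4.6 and scipy 1.17.1. The code was tested on simulated data. Alternatives were lists of equal length, a −log10 q minimum of 5, 50% cover, summit windows of 100 bp to each side, scaled depth, each library left out, and the replicate block. Regions named were the 8 of highest mean fold percentile in SMARCB1 lists, the 5 highest in GFP lists and the 3 strongest present in a single GFP treatment in each direction. Regions, rules and lists were chosen with earlier results of these data known, and the gene lists and motifs planned were not run for want of an hg19 reference here.

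Replicate numbers are shared across groups, and library titles carry running identifiers that group by number, but the labels do not say whether these mark a batch. In the SMARCB1 lists, deviations of fold ranks from the group means correlated across treatments at 0.118, 0.269 and 0.383 for numbers 1, 2 and 3 over 39492 regions, so the numbers were taken to pair those libraries.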

Additional observations from a re-analysis of the deposited data

How the results depend on the processing

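The fold-rank comparisons by region and the gaps to constitutive regions were added after seeing the data. For 11 results, 193 alternative values were computed: 7 differences changed sign, 37 counts or gaps moved by over 1.5 times, and the other 149 were differences that kept their sign, whatever their size, or counts and gaps within 1.5 times. The number of weakly open regions was 2181 with a −log10 q of at least 5, 1164 with lists of equal length and 2518 with 50% cover, and 4120 to 4816 with a library left out. Of the 3987 regions, 1135, 970 and 965 met the rule under the first 3 of these settings. Summit windows gave 3982 regions, and 3894 of the 3987 met the rule there. Regions with all GFP peaks in dBRD9-A numbered 10 with lists of equal length and 26 with 50% cover, and 44 to 204 with a library left out. Those with all in DMSO numbered 50 and 66 under the first 2 settings and 68 to 348 with a library left out. Shares over all regions with such GFP peaks are not given for these counts. Regions ranking above all DMSO lists in dBRD9-A numbered 89, 36 and 99, and below 73, 43 and 88, with a −log10 q minimum of 5, equal list lengths and 50% cover. With a library left out these counts were 183 to 470 and 154 to 408, and with the replicate block 563 and 462. Median gaps with 50% cover were 42.0 and 75.1 kb, and the width difference was then 0.50 bp.

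Over libraries left out, differences between dBRD9-A and DMSO ran from −782 to 305 regions, from −1.64 to 0.125 percentage points, from −0.341 to 1.13 rank points and from −9.25 to 13.5 bp. Under the replicate block, with a smallest p of 0.25, they were −46.7 regions (exact sign-flip p 1), −0.408 points (p 0.750), 0.196 points (p 0.750) and −1.33 bp (p 1), and no call changed. In GFP lists, presence deviations of same-numbered libraries correlated at 0.0310, 0.00813 and 0.0578, below the 0.1 taken to show pairing; these values do not show that the libraries share no batch. Differences in the number of regions and in their share of a list rest on GFP peaks that the rule used. Their p-values therefore cannot decide an effect of dBRD9-A. The lowest p under any alternative was 0.1. The cause of these shifts was not tested. GFP summits of few fragments limit what the presence of a single peak can show.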
